A study of Mus musculus with 6 samples.

Results

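The cyclins, the cyclin-dependent kinases (CDKs), the CDK inhibitors, the retinoblastoma family and the E2F factors were examined in HL-1 cells after knockdown of the long noncoding RNA Malat1. HL-1 is a mouse cell line that grew from an atrial tumour driven by the viral large T antigen, a protein known to bind the retinoblastoma family, and it divides in culture while keeping features of cardiomyocytes. The genes were taken by symbol from a list of 51, and all 51 were found among the 21269 genes measured. The cells, plated 24 hours earlier, received 50 nM of LNA Control or 50 nM of LNA Malat1. Both are gapmers, short DNA strands with locked nucleic acid ends that direct RNase H to a matching RNA, and the transfection reagent was the same in both groups. RNA was collected 48 hours later, and 3 libraries per group were sequenced. The labels do not say whether the libraries came from separate cultures, so p-values measure the spread between libraries, which may be technical.

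A cyclin binds a CDK and switches its kinase on. Cyclin D with CDK4 or CDK6 and then cyclin E with CDK2 phosphorylate the retinoblastoma proteins, which release E2F factors, and E2F factors with a DP partner turn on the genes of DNA replication. Cyclins A and B with CDK1 carry the cell into mitosis, a step opened by the Cdc25 phosphatases and held back by Wee1. Cardiomyocytes leave this cycle soon after birth, when many of these genes are turned down and inhibitors of the Kip and INK4 families are known to help keep cells out of the cycle.

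The values are normalized counts, that is read counts divided by a factor for each library and rounded. They summed to between 4758777 and 4921406 per library, from an estimated 4512255 to 5593297 reads on genes. The targeted RNA was lower in every LNA Malat1 library, with Malat1 at 57.2% of LNA Control (log2 change -0.80 ± 0.07 SE, adjusted p = 7.5e-06 in limma). Of 10 cardiomyocyte markers 9 were listed. Their summed normalized count was 5270 to 5552 in the controls against 4983 to 5156 with LNA Malat1, with the atrial marker Myl7 between 18 and 32 and Myh6 between 0 and 7 in every library. Nppa was not analysed here. The fibroblast sum was 1953 to 2530 against 1824 to 1957 and was almost all Col1a1, with Col1a2 at 0 or 1. The smooth muscle sum was 1512 to 1678 against 1553 to 1701. Endothelial markers summed to 19 to 28 against 32 to 35 and immune markers to 32 to 36 against 54 to 81, with 2 of 5 genes listed in either case. At an adjusted p of at most 0.05 in limma, both immune markers were higher (log2 fold change 0.79 and 1.19). Neither call held without LNA Malat1 replicate 1 or 2. Of 8 cardiomyocyte markers tested, 2 were lower and 1 higher (37.5% called, against 28.3% of all genes tested). Of 4 smooth muscle markers 1 was higher, and no fibroblast or endothelial marker passed. The part of these markers in the results was not tested. Over all genes compared, LNA Malat1 replicates 1 and 3 differed by less than the sampling noise. This did not hold in the genes with at least 1600 reads. As a cautious choice these replicates were counted as 1 sample, their mean, in each mean ± SD. The LNA Control libraries differed from each other by more than the sampling noise.

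The largest falls after Malat1 knockdown were in Rbl2, Cdkn1c, E2f6, Tfdp2, Ccnd1 and Mybl2, and the largest rises were in Cdkn2b, Ccnt2 and Ccnt1, while Mki67 and most E2F genes did not pass the test. Of the 51 genes, 23 passed an adjusted p of at most 0.05 in the limma fit across all 15650 genes that had a mean of at least 5. Of these, 17 were lower and 6 higher in LNA Malat1, and 28 did not pass. This is 45.1% of the members, against 28.3% of all genes tested, with 33.3% against 14.0% lower and 11.8% against 14.3% higher. The median log2 fold change was -0.05 over the members and 0.02 over all genes. For means of at least 50 it was -0.07 over the members and -0.03 over all genes. Most members are well expressed. Among the 10490 genes whose mean was at least 50, 32.5% were called, 20.2% lower and 12.3% higher, and 50 of the 51 members lie there. Between means of 200 and 500, 22.7% of all genes and 5 of 16 members were lower. Between 500 and 1000 the numbers were 23.5% and 7 of 21 members. The median log2 fold changes in these ranges were -0.05 and -0.05 over all genes, and -0.09 and -0.05 over the members. The counts by role below are parts of the 23 calls, on 2 to 10 genes each, and are read against the same shares.

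The changes were small. The retinoblastoma family member Rbl2, the E2F factor E2f6 and the CDK inhibitor Cdkn1c also passed a 1.5-fold minimum, all of them lower. This minimum with the same adjusted p was met by 10.9% of all genes, 8% higher and 2.92% lower, and by 6.35%, 3.02% and 3.33% of genes whose mean is at least 50. The LNA Malat1 libraries all lay below the LNA Control libraries for 24 members and above them for 10, and the groups overlapped for 17. Groups that did not overlap were found for 41.3% of all genes, 20.8% with LNA Malat1 below and 20.5% above, and for 45.7%, 28.5% and 17.2% of genes whose mean is at least 50. The balance of directions moved with the scaling. Under quantile normalization 10 members were higher and 13 lower, and with library totals set equal 9 were higher and 13 lower. The median log2 fold change of all genes moved as well, from 0.02 to -0.00 and 0.05 in these settings. The shares of all genes called in these settings and in the next are not given here. The move is thus not read as a result about the members. With LNA Malat1 replicates 1 and 3 merged, 4 were higher and 12 lower.

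**Figure D1:**
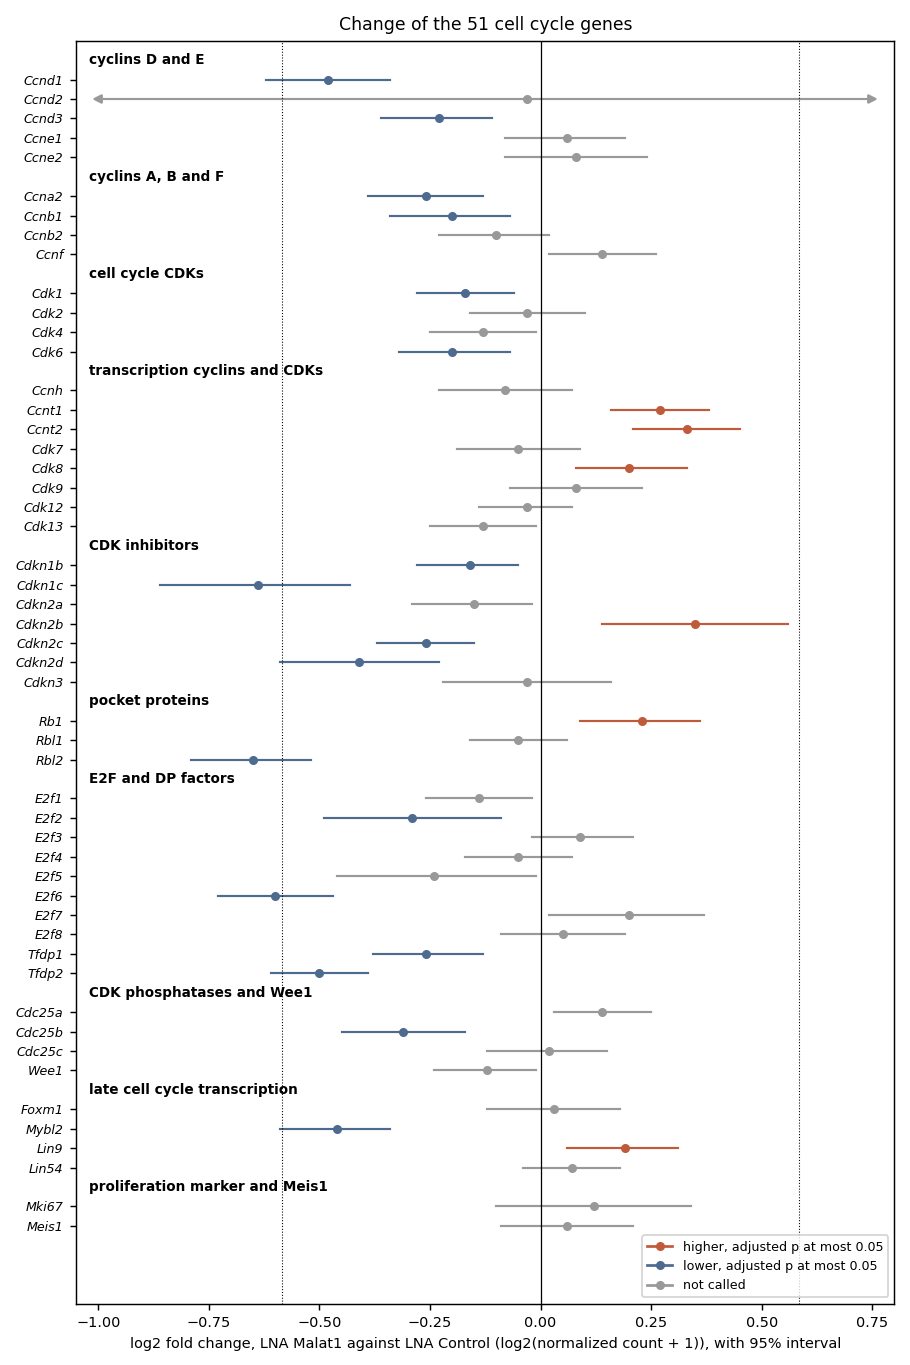
Log2 fold change of the 51 genes on the log2(normalized count + 1) scale, LNA Malat1 against LNA Control, as points with 95% intervals, grouped by role. Blue points are the 17 genes called lower, orange points the 6 called higher and grey points the 28 not called. Dotted lines mark a 1.5-fold change, and the interval of Ccnd2 runs past both edges.

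The retinoblastoma family, or pocket proteins, hold E2F factors in check. Its 3 genes had 3 different patterns. Rbl2 encodes the member that joins E2F4 and the MuvB proteins in the DREAM complex, which silences cell cycle genes in resting cells. Its normalized counts were 376, 379 and 388 in the controls and 227, 250 and 249 in LNA Malat1. The groups were far apart, with means of 381.0 ± 6.24 (SD, n = 3) and 244.0 ± 8.49 (SD, n = 2). Rbl2 lies on mm10 at chr8:91070057-91123844 on the plus strand and had the largest fall of the 51 genes (log2 change -0.65 ± 0.06 SE, adjusted p = 9.9e-06 in limma). The fall was at least 1.52-fold in all 16 alternatives. Of its exonic bases, 11.8% also belong to Gm45464 and 9.2% to Aktip on the other strand.

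Rb1, the retinoblastoma gene itself, moved the other way. It had 407, 403 and 443 normalized counts in the controls against 495, 457 and 517 with LNA Malat1, so that the lowest LNA Malat1 library was just above the highest control. The log2 change was 0.23 ± 0.06 SE (limma, adjusted p = 0.017). The Rb1 call was lost without LNA Control replicate 2 (adjusted p = 0.075), without LNA Malat1 replicate 1 (0.074) or 3 (0.091), and with those LNA Malat1 libraries as 1 sample (0.077). Rbl1, the pocket protein that is itself an E2F target, had a log2 fold change of -0.05 (95% interval -0.16 to 0.06) and overlapping groups.

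Of the 10 genes for E2F factors and their DP partners, 4 fell and the other 6 did not pass. E2f6 encodes a repressor that does not bind pocket proteins and acts with Polycomb proteins. Its normalized counts were 492, 477 and 441 in the controls against 316, 310 and 304 with LNA Malat1. The LNA Malat1 libraries were close to each other and well below every control (chr12:16810963-16839742, plus strand, log2 change -0.60 ± 0.06 SE, adjusted p = 1.4e-05 in limma). The fold change of E2f6 lay just past 1.5, at 1.52, and was 1.47 with library totals set equal or without LNA Control replicate 1, 1.45 under quantile normalization and 1.49 without LNA Malat1 replicate 3.

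Both DP genes, whose proteins pair with E2F factors so that these can bind DNA, were lower. Tfdp2 had 816, 817 and 793 normalized counts in the controls against 558, 589 and 569 with LNA Malat1 (log2 change -0.50 ± 0.05 SE, adjusted p = 1.5e-05 in limma). Tfdp1 had 581, 571 and 524 against 452, 483 and 468 (-0.26 ± 0.06 SE, adjusted p = 0.0057 in limma). In neither gene did the groups overlap, and the fall of Tfdp2 was the larger.

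E2f2, one of the activating E2F genes, was expressed at a low level and fell from 159, 143 and 158 to 128, 113 and 136 (log2 change -0.29 ± 0.09 SE, adjusted p = 0.036 in limma). This call did not hold without LNA Control replicate 1 (adjusted p = 0.068) or 3 (0.078), without LNA Malat1 replicate 1 (0.084) or 2 (0.14), with library totals set equal (0.066) or with no filter on low genes (0.059), and it was 0.053 with LNA Malat1 replicates 1 and 3 merged. The other activators were E2f1, with a log2 fold change of -0.14 (95% interval -0.26 to -0.02), and E2f3, with 0.09 (-0.02 to 0.21). Neither passed the adjusted threshold, although E2f1 did with median-of-ratios scaling (adjusted p = 0.048) and E2f3 under quantile normalization (0.028).

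E2f4 and E2f5, the repressors that carry pocket proteins to DNA, had log2 fold changes of -0.05 (-0.17 to 0.07) and -0.24 (-0.46 to -0.01). The atypical repressors E2f7 and E2f8, which bind DNA without a DP partner, had 0.20 (0.02 to 0.37) and 0.05 (-0.09 to 0.19). E2f7 had 514, 427 and 421 normalized counts in the controls against 544, 476 and 539 with LNA Malat1, so a single control library made the groups overlap. Without LNA Control replicate 1 its log2 fold change was 0.29 (limma adjusted p = 0.0025), against an adjusted p of 0.083 with all libraries.

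**Figure D2:**
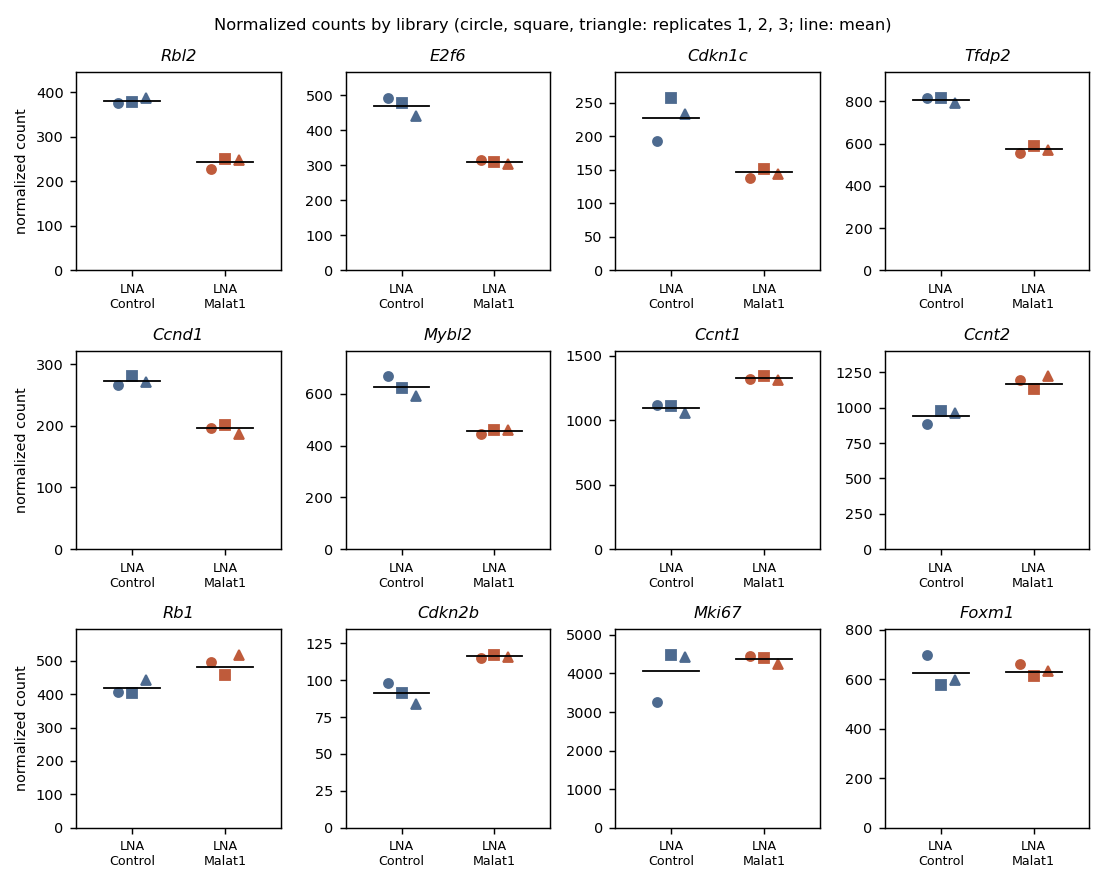
Normalized counts of 12 genes in each library, with LNA Control in blue and LNA Malat1 in orange on axes that start at 0. Circles, squares and triangles are replicates 1, 2 and 3 and lines are group means, with LNA Malat1 replicates 1 and 3 counted as 1 sample. The groups of Rbl2, E2f6, Cdkn1c, Tfdp2, Ccnd1 and Mybl2 are separate with LNA Malat1 below, those of Ccnt1, Ccnt2, Rb1 and Cdkn2b are separate with LNA Malat1 above, and those of Mki67 and Foxm1 overlap.

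E2F factors and the DREAM complex act through short promoter motifs, so the promoters of these genes are shown for 6 that hold an E2F-type match and for the 2 genes of this family with the largest falls, whose promoters hold none. Promoters from 250 bases before to 50 bases after the transcription start were taken from RefSeq (GRCm38.p6) and matched 38 of the 51 members by symbol. They were searched on both strands for the E2F-type words TTTCCCGC, TTTGGCGC, TTTCGCGC and TTTGCCGC, for the cell cycle homology region TTTGAA and for the CCAAT box CCAAT. The stretches below lie before the start, are written 5′ to 3′ on the strand of the gene, and carry matches in capitals, where GCGCGAAA, GCGGGAAA, TTCAAA and ATTGG are matches on the other strand. No base in them belongs to 2 motifs. The E2f6 stretch holds no match.
Rbl1, minus strand, chr2:157204535-157204594: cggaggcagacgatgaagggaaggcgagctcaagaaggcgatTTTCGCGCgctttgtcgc
Tfdp1, plus strand, chr8:13338671-13338730: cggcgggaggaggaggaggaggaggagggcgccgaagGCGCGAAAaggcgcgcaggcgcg
E2f3, minus strand, chr13:29986064-29986123: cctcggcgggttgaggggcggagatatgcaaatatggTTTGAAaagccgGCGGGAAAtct
E2f7, plus strand, chr10:110745214-110745273: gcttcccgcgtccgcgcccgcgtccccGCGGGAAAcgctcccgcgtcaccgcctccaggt
Cdc25a, plus strand, chr9:109875439-109875538: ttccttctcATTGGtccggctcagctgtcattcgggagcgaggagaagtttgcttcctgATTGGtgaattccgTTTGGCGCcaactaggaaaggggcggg
Cdk1, minus strand, chr10:69352939-69353052: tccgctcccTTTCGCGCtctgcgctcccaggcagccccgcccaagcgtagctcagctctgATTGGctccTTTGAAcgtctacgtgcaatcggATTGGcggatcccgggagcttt
Rbl2, plus strand, chr8:91069827-91069946: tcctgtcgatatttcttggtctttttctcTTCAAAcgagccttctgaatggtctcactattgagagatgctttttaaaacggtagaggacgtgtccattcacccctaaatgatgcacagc
E2f6, plus strand, chr12:16810845-16810962: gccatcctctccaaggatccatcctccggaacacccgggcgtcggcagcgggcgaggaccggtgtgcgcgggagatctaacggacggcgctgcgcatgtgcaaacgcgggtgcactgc

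An E2F-type word was found in 9 of the 38 members with a promoter (23.7%). It was in 2.26% of all 32851 RefSeq promoters and 4.64% of the 10549 tested genes outside the list that have a promoter there. The 9 genes are Cdc25a, Cdk1, Cdk2, Cdkn2a, E2f2, E2f3, E2f7, Rbl1 and Tfdp1. The Cdk1 promoter carried all 3 kinds of motif, with a CCAAT box just before the TTTGAA word. The TTTGAA word was found in 11 members (28.9%), against 17.9% of all promoters and 14.6% of those tested genes. CCAAT was found in 22 (57.9%), against 37.4% and 43.3%. Members and tested genes were counted by gene over all promoters of a symbol, so the shares of tested genes are the like ones. Of the 9 genes, Cdk1, E2f2 and Tfdp1 were lower and the other 6 were not called, and the median log2 fold change was -0.05. Of the 29 others, 11 were lower and 4 higher, with a median of -0.10. A match is a word in a window and no measure of binding.

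The genes of late cell cycle transcription code for partners of the MuvB proteins, which follow DREAM in driving mitotic genes. Mybl2, the B-Myb factor, had 667, 624 and 592 normalized counts in LNA Control against 443, 462 and 460 in LNA Malat1 (log2 change -0.46 ± 0.06 SE, adjusted p = 8.7e-05 in limma). Its groups were separated by a wide gap. Lin9, a MuvB subunit, had 408, 445 and 457 against 504, 501 and 487, a log2 change of 0.19 ± 0.06 SE (limma, adjusted p = 0.028) in the opposite direction. The Lin9 call was lost when any 1 library other than LNA Control replicate 3 was left out (adjusted p 0.058 to 0.1), and with LNA Malat1 replicates 1 and 3 merged (0.074). Lin54, the MuvB subunit that binds the TTTGAA word, had 0.07 (95% interval -0.04 to 0.18), and Foxm1, the forkhead factor of mitotic genes, had 0.03 (-0.12 to 0.18).

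Among the D and E cyclins, which carry the cell through the G1 phase, 2 of 5 fell. Ccnd1, the cyclin most tied to growth signals, had 266, 280 and 271 normalized counts in the controls against 196, 201 and 187 with LNA Malat1 (log2 change -0.48 ± 0.06 SE, adjusted p = 0.00015 in limma). Ccnd3, another D cyclin, had 618, 557 and 566 against 504, 500 and 476 (-0.23 ± 0.06 SE, adjusted p = 0.0092 in limma). Both sets of libraries were apart, although the Ccnd3 adjusted p was 0.053 without LNA Malat1 replicate 3. Of the exonic bases of Ccnd1, 23.4% are shared with Lto1 on the other strand.

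Ccnd2 was barely expressed, at 1 to 11 normalized counts in every library, and its interval was too wide to place it (-1.39 to 1.34). The E cyclins, partners of CDK2, differed little. Ccne1 had a log2 fold change of 0.06 (95% interval -0.08 to 0.19) and Ccne2 of 0.08 (-0.08 to 0.24).

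Among the A, B and F cyclins, Ccna2 and Ccnb1 fell slightly, while Ccnb2 and Ccnf were not called and Ccnf lay above the controls. Ccna2, cyclin A, used in both S phase and mitosis, had 1168, 1139 and 1035 normalized counts in the controls against 897, 976 and 920 with LNA Malat1 (log2 change -0.26 ± 0.06 SE, adjusted p = 0.0064 in limma). Of its exonic bases, 12.5% are shared with Exosc9 on the other strand. Ccnb1, the main partner of CDK1 in mitosis, had 273, 273 and 264 against 237, 227 and 239 (-0.20 ± 0.06 SE, adjusted p = 0.025 in limma). The libraries of each gene were separate by group, yet the Ccnb1 call was lost without LNA Control replicate 2 (adjusted p = 0.074), without any LNA Malat1 library (0.053 to 0.091), with library totals set equal (0.053), with LNA Malat1 replicates 1 and 3 merged (0.051) and under quantile normalization (0.079).

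Ccnb2, a second B cyclin, had a log2 fold change of -0.10 (95% interval -0.23 to 0.02). Ccnf, an F-box cyclin that marks proteins for destruction, had 0.14 (0.02 to 0.26) and passed the threshold only with library totals set equal (adjusted p = 0.027) or under quantile normalization (0.012). In RNA from a whole culture, fewer cells in a phase and less RNA per cell cannot be told apart.

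All 4 cell cycle kinases had a negative log2 fold change, and Cdk1 and Cdk6 passed the test. Cdk1, the mitotic kinase, had 579, 608 and 573 normalized counts in the controls against 517, 540 and 507 with LNA Malat1 (log2 change -0.17 ± 0.05 SE, adjusted p = 0.03 in limma). Cdk6, a partner of the D cyclins, had 1167, 1052 and 1035 against 954, 949 and 933 (-0.20 ± 0.06 SE, adjusted p = 0.021 in limma). LNA Malat1 was at 89.7% of the control mean for Cdk1 and at 87.2% for Cdk6, and both calls depended on the libraries. The Cdk1 call was lost without LNA Control replicate 2 (adjusted p = 0.11) or LNA Malat1 replicate 1 (0.1) or 3 (0.12), and with totals set equal (0.066). The Cdk6 call was lost without any LNA Malat1 library (0.068 to 0.088). Under quantile normalization neither passed (0.13 and 0.058), nor with LNA Malat1 replicates 1 and 3 merged (0.1 and 0.076).

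Cdk4, the other D cyclin kinase, had a log2 fold change of -0.13 (95% interval -0.25 to -0.01) and passed without LNA Control replicate 3 (adjusted p = 0.039) but not with all libraries (0.087). Cdk2, the partner of cyclins E and A, had -0.03 (-0.16 to 0.10). Of the exonic bases of Cdk4, 19.7% are shared with Tspan31 on the other strand.

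Of the 7 genes listed as CDK inhibitors, which do not include Cdkn1a, 4 were lower and 1 higher. Cdkn1c is an imprinted gene of the Kip family that restrains growth in the embryo. It had 192, 257 and 233 normalized counts in the controls against 138, 151 and 144 with LNA Malat1, with means of 227.3 ± 32.9 (SD, n = 3) and 146.0 ± 7.07 (SD, n = 2). The control libraries spread widely, and the lowest still lay above every LNA Malat1 library (chr7:143458339-143461050, minus strand, log2 change -0.64 ± 0.10 SE, adjusted p = 0.00047 in limma). The fold change was 1.56 and fell below 1.5 without LNA Control replicate 2, to 1.46. Of the exonic bases of Cdkn1c, 30.7% overlap Gm44732 on the other strand.

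Cdkn1b, the Kip inhibitor of cyclin E and CDK2, had 1051, 984 and 975 against 882, 912 and 891 (log2 change -0.16 ± 0.05 SE, adjusted p = 0.031 in limma). This was among the smallest changes called, and it was lost without LNA Control replicate 1 (adjusted p = 0.07) or 2 (0.061), without any LNA Malat1 library (0.069 to 0.12), with LNA Malat1 replicates 1 and 3 merged (0.1), with totals set equal (0.069) and under quantile normalization (0.11).

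The INK4 inhibitors, which bind CDK4 and CDK6, split by gene. Cdkn2c had 693, 718 and 699 normalized counts in the controls against 599, 599 and 565 with LNA Malat1 (log2 change -0.26 ± 0.05 SE, adjusted p = 0.0024 in limma). Cdkn2d had 155, 147 and 155 against 120, 109 and 114 (-0.41 ± 0.08 SE, adjusted p = 0.003 in limma). Both were lower in every LNA Malat1 library. Cdkn2b, the INK4 gene that responds to transforming growth factor beta, went up instead, from 98, 91 and 84 to 115, 117 and 116 (0.35 ± 0.10 SE, adjusted p = 0.018 in limma). The Cdkn2b adjusted p was 0.056 to 0.06 without any 1 LNA Malat1 library.

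Cdkn2a, which encodes both an INK4 protein and Arf, an activator of p53, lies next to Cdkn2b on the minus strand of chromosome 4, at chr4:89274471-89294653 against chr4:89306299-89311039. It did not rise with its neighbour, at a log2 fold change of -0.15 (95% interval -0.29 to -0.02, limma adjusted p = 0.083). Cdkn3, a phosphatase that acts on CDK2, had -0.03 (-0.22 to 0.16).

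Among the phosphatases that activate CDKs, Cdc25b fell. Cdc25b, which starts the entry into mitosis, had 477, 489 and 420 normalized counts in LNA Control against 374, 377 and 365 in LNA Malat1 (log2 change -0.31 ± 0.06 SE, adjusted p = 0.0035 in limma). Cdc25a, which acts at the start of S phase as well, had 532, 518 and 503 against 569, 587 and 559. Every LNA Malat1 library was above every control, but the change of 0.14 (95% interval 0.03 to 0.25) had a limma adjusted p of 0.056. It passed with totals set equal (adjusted p = 0.017), under quantile normalization (0.007), among genes with a mean of at least 50 (0.047) and without LNA Control replicate 1 (0.037). Cdc25c had 0.02 (-0.12 to 0.15), and Wee1, the kinase that blocks CDK1, had -0.12 (-0.24 to -0.01).

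The kinases and cyclins that act on RNA polymerase II showed rises and no called fall among 8 genes. Ccnt1 and Ccnt2 encode the cyclin T subunits of P-TEFb, which with CDK9 releases paused polymerase. Ccnt1 had 1123, 1114 and 1054 normalized counts in the controls against 1318, 1341 and 1312 with LNA Malat1 (log2 change 0.27 ± 0.05 SE, adjusted p = 0.0016 in limma). Ccnt2 had 887, 976 and 960 against 1194, 1131 and 1221 (0.33 ± 0.06 SE, adjusted p = 0.00093 in limma). Both cyclin T genes were called in all 16 alternatives.

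Their kinase Cdk9 had 281, 262 and 270 against 314, 272 and 277, a log2 fold change of 0.08 (95% interval -0.07 to 0.23) with overlapping groups. Cdk8, the kinase of the Mediator complex, had 601, 558 and 588 against 633, 699 and 682 (0.20 ± 0.06 SE, adjusted p = 0.017 in limma). The Cdk8 call was lost without LNA Control replicate 2 (adjusted p = 0.079) or LNA Malat1 replicate 2 (0.085) or 3 (0.075). Ccnh and Cdk7, the CDK-activating kinase that also serves transcription, had -0.08 (-0.23 to 0.07) and -0.05 (-0.19 to 0.09). The elongation kinases Cdk12 and Cdk13 had -0.03 (-0.14 to 0.07) and -0.13 (-0.25 to -0.01), and Cdk13 passed without LNA Control replicate 1 (adjusted p = 0.019).

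Mki67 encodes the Ki-67 antigen, the usual marker of dividing cells, and Meis1 encodes a homeobox factor known to promote cell cycle exit in cardiomyocytes. Mki67 had 3273, 4477 and 4419 normalized counts in the controls against 4446, 4411 and 4235 with LNA Malat1. LNA Control replicate 1 lay well below the other 5 libraries, and the log2 fold change was 0.12 (95% interval -0.10 to 0.34, limma adjusted p = 0.41) with it and -0.03 (0.76) without it. Meis1 had 677, 756 and 833 against 770, 789 and 793, a log2 fold change of 0.06 (-0.09 to 0.21). For Meis1, 9.8% of the exonic bases overlap Gm37818 on the same strand.

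Ratios of 2 genes within a library do not depend on its scaling factor. The pairs were chosen after the values were seen, so they are a description and no test result is read. Since counts are not corrected for length, only the change of a ratio can be read. The ratio of Rb1 to Rbl2 was 1.08, 1.06 and 1.14 in the controls against 2.18, 1.83 and 2.08 with LNA Malat1, a change of 0.85 on the log2 scale. Cdkn2b to Cdkn2d went from 0.63, 0.62 and 0.54 to 0.96, 1.07 and 1.02, a change of 0.79. E2f7 to E2f6 went from 1.04, 0.90 and 0.95 to 1.72, 1.54 and 1.77, a change of 0.77. In all 3 pairs the least shifted LNA Malat1 library lay above the highest control.

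The ratio of Lin9 to Mybl2 went from 0.61, 0.71 and 0.77 to 1.14, 1.08 and 1.06, a change of 0.65. Cdc25a to Cdc25b rose by 0.46 and Ccnd1 to Ccne1 changed by -0.52. The cyclin T genes moved less against their kinase, with 0.25 for Ccnt2 to Cdk9 and 0.21 for Ccnt1 to Cdk9, and for Ccnt1 the groups overlapped.

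**Figure D3:**
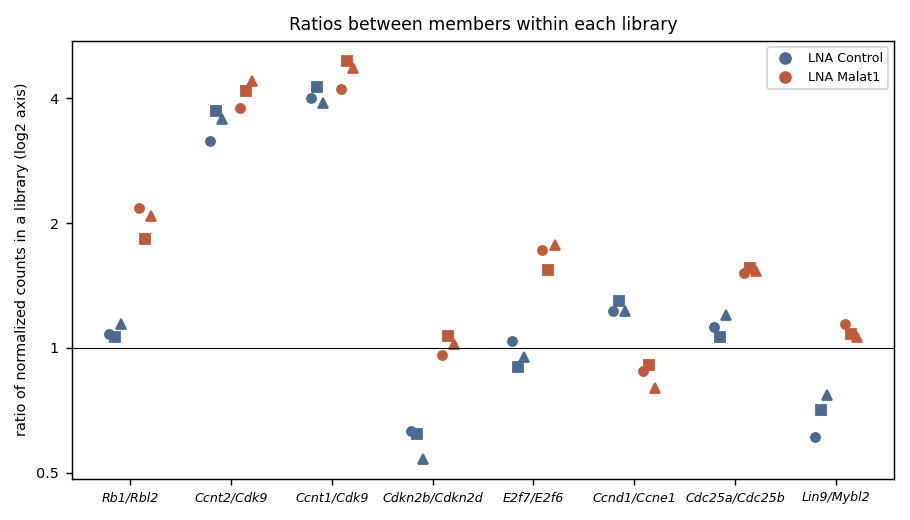
Ratio of the normalized counts of 2 genes within each library on a log2 axis, with LNA Control in blue, LNA Malat1 in orange, and circles, squares and triangles for replicates 1, 2 and 3. The groups are apart for all pairs but Ccnt1 to Cdk9, and the widest shift is that of Rb1 to Rbl2.

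Levels between genes were compared as normalized counts per kilobase of annotated exon, averaged over the 6 libraries. The median over the 51 genes was 85.9 per kilobase. Mki67 was the highest at 418.5, followed by E2f4 at 270.0, Cdkn2a at 264.2, Ccnb2 at 262.4, Ccna2 at 250.4 and Cdkn2c at 240.3. From E2f4 to Cdkn2c the libraries overlapped, so their order is not settled. The cyclins Ccnb2 and Ccna2 and the inhibitors Cdkn2a and Cdkn2c thus lay side by side near the top of the order. The cyclin Ccnb1 was at 59.8, over 4.22 kilobases of merged exon against 1.53 for Ccnb2. The control means of Ccnb1 and Ccnb2 before this division were 270.0 and 416.0 normalized counts. Reads shared with their processed pseudogenes were left out, and the part of length and mapping in this gap was not tested. At the low end were Rbl2 at 41.2, E2f2 at 28.6 and Ccnd2 at 0.691 per kilobase. The average of Rbl2 includes its fall, from 50.4 per kilobase in the controls to 32.3 with LNA Malat1. Among the D cyclins Ccnd3 (61.2) and Ccnd1 (49.6) made up nearly all of the RNA, and among the E cyclins Ccne2 (166.5) stood above Ccne1 (83.4). Of the exonic bases of Ccne2, 17.4% are shared with Ints8 on the other strand.

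**Figure D4:**
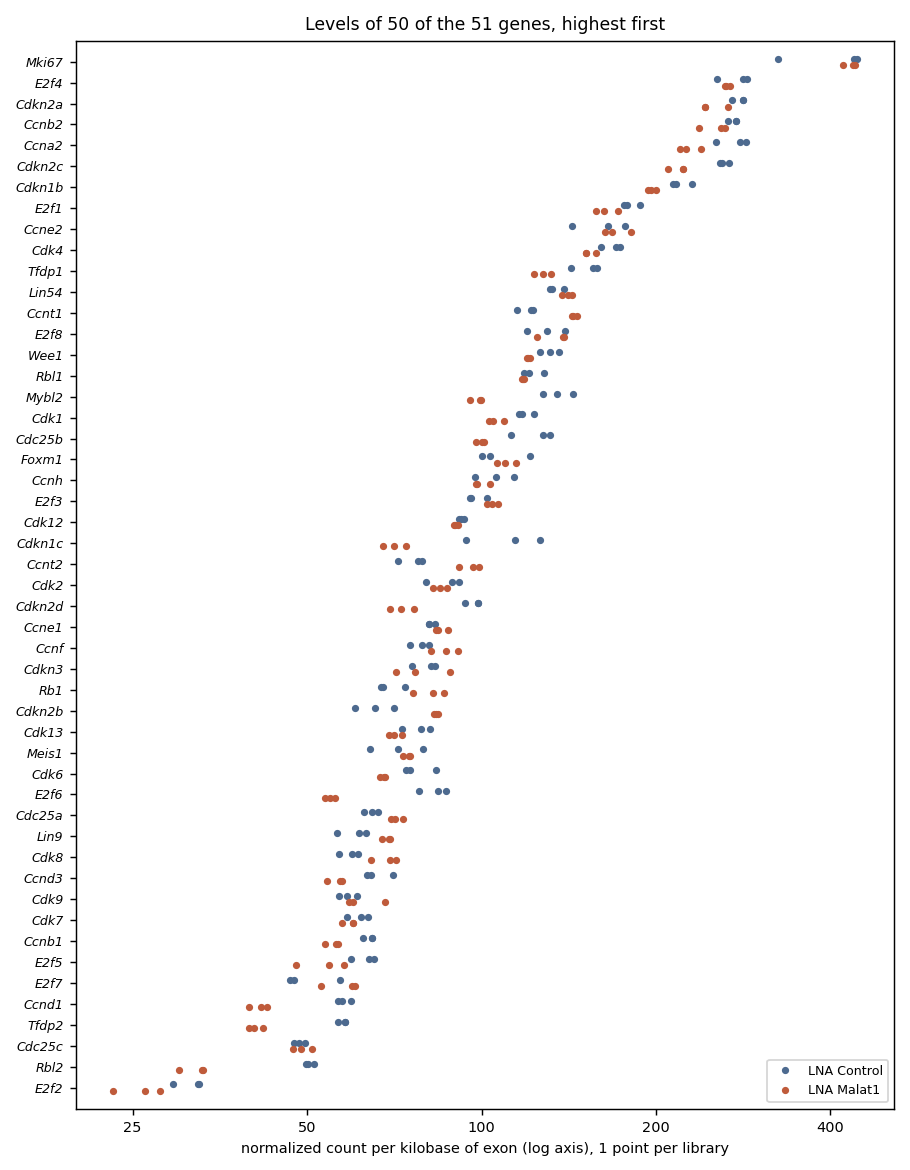
Normalized counts per kilobase of exon for 50 of the 51 genes on a log axis, ordered by their mean level, with a point for each library and LNA Control in blue and LNA Malat1 in orange. Ccnd2, at 0.691 per kilobase, lies off the axis to the left. Mki67 stands above all others and the LNA Malat1 points of Rbl2 and E2f6 lie well to the left of their controls.

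The wider cell cycle program was read from lists of other genes, none of them members. Over all genes tested 14.0% were lower and 14.3% higher, against 20.2% and 12.3% where the mean was at least 50. Of 38 transcripts of the G1/S transition, many of which are known E2F targets, 12 were lower (31.6%) and 1 was higher (2.63%), with a median log2 fold change of -0.07. The largest falls were in Tk1, thymidine kinase (-0.47), Ung, a uracil repair enzyme (-0.41), and Pola1, a DNA polymerase subunit (-0.39). Casp8ap2, a protein of histone gene expression, was the 1 that rose (0.50, limma adjusted p = 0.021), and LNA Control replicate 1 had its lowest value, 719, against 1071 and 1250 in the other controls and 1329 to 1437 in LNA Malat1. The Casp8ap2 call was lost without LNA Control replicate 2 or any LNA Malat1 library, and 9 to 17 G1/S transcripts were called when each library was left out in turn.

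Of 47 G2/M transcripts tested, 3 were lower (6.38%) and 6 higher (12.8%), with a median of -0.04. The higher share was near the 14.3% of all genes tested, and the lower share was under their 14.0%. Cenpf, a kinetochore protein, had 735, 1346 and 1686 normalized counts in the controls against 1846, 1804 and 1774 with LNA Malat1 (log2 change 0.61 ± 0.21 SE, adjusted p = 0.045 in limma). As with Mki67, LNA Control replicate 1 was the lowest. The Cenpf call was lost in 8 of the 16 alternatives, among them those without LNA Control replicate 2 or any LNA Malat1 library. Gtse1, a regulator of the mitotic spindle, rose (0.41), as did Ube2c, the ubiquitin enzyme of mitotic exit (0.28), and Cdca3, a protein of mitotic entry, fell (-0.25). The Ube2c call was lost without LNA Control replicate 2 (adjusted p = 0.064) or LNA Malat1 replicate 2 (0.058) or 3 (0.063). The G2/M count was 16 without LNA Control replicate 3, 4 without LNA Control replicate 2, and 4, 5 and 3 without LNA Malat1 replicates 1, 2 and 3.

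**Figure D5:**
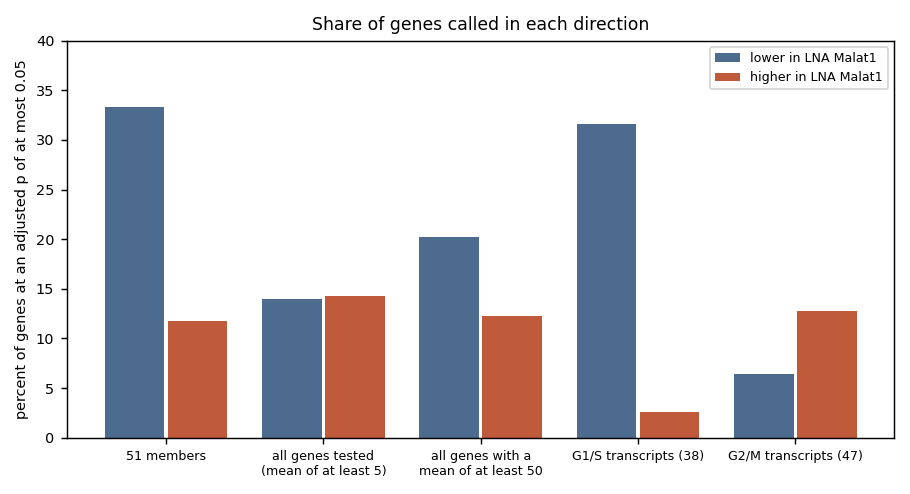
Percent of genes with an adjusted p of 0.05 or less, lower (blue) and higher (orange) in LNA Malat1, for the 51 genes, all genes tested, genes whose mean is at least 50, and the G1/S and G2/M lists. Lower calls make up 33.3% of the 51 genes and 31.6% of the G1/S list, against 14.0% of all genes tested and 20.2% of those whose mean is at least 50.

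Genes that work directly with the members moved in both directions. Of 16 genes of the DREAM complex and of other kinases and phosphatases of the cycle, 4 were lower and 2 higher. This is 37.5% called, against 28.3% of all genes tested and 32.5% of those with a mean of at least 50. Of the higher pair, Greb1, an oestrogen-response gene that is neither a DREAM subunit nor such an enzyme, had only 3 to 6 normalized counts in the controls and 18 to 21 with LNA Malat1, and was named after its values were seen. Dyrk1a, the kinase that assembles DREAM, was lower (-0.45, limma adjusted p = 6.3e-05), as was the phosphatase Cdc14a (-0.64, limma adjusted p = 6.3e-05) with its relative Cdc14b (-0.32), whereas Mybl1, the A-Myb factor, was higher (0.57, limma adjusted p = 0.00022). Of 22 ubiquitin ligase genes tested 3 were called, all lower, a share of 13.6% that is under the 28.3% of all genes tested. These were Fbxw7, which marks cyclin E for destruction (-0.37), Anapc16 (-0.36) and Fzr1 (-0.22), subunit and activator of the anaphase-promoting complex. The Fzr1 call was lost in 8 of the 16 alternatives, among them those without LNA Control replicate 1 or 2 or LNA Malat1 replicate 1 or 2.

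Of 15 other cyclins tested, 3 were lower and 2 higher. This is 33.3% called, against 28.3% of all genes tested and 32.5% of those with a mean of at least 50. Among those with a mean of at least 50, Ccny, a membrane-bound cyclin, had the largest change (-0.85, limma adjusted p = 3e-07), with 605, 618 and 603 normalized counts in the controls against 335, 337 and 338 with LNA Malat1. Ccno, at 4 to 10 normalized counts in the controls and 17 to 21 with LNA Malat1, was higher (1.53, limma adjusted p = 0.0055) and was named after its values were seen. The kinase partner of Ccny, Cdk14, was also lower (-0.39, limma adjusted p = 0.00018). It was among 4 lower and 2 higher of 18 tested genes for other CDKs, CDK-like kinases and CDK partner proteins (33.3% called). The 2 higher were the CDK-like genes Cdkl1 and Cdkl4, named after their values were seen. They had only 4 to 11 normalized counts in the controls and 16 to 27 with LNA Malat1. Ccng2, a cyclin tied to growth arrest, had -0.32, and Mnat1, which joins Ccnh and Cdk7, had -0.26. Ccnjl (-0.28), Ccnl1 (0.17) and Cdk16 (-0.18) were called as well.

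Around P-TEFb, 3 of 25 partners were lower and 1 higher, so that 16% were called against 28.3% of all genes tested. These were Nelfcd, a subunit of the pausing factor NELF (-0.47), Mepce, which caps the RNA that holds P-TEFb inactive (-0.35), Med13l, a subunit of the Mediator kinase module (-0.24), and Ell2, an elongation factor (0.38). Among these further genes, the calls for Ccng2, Ccnjl, Ccnl1, Cdk16 and Med13l were lost when 1 or more of the libraries were left out singly.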

How the data were processed

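RNA of 3 LNA Control and 3 LNA Malat1 libraries of HL-1 cells was prepared with a stranded total RNA kit. The authors trimmed reads with Trimmomatic 0.39, aligned them to mm10 with STAR 2.7.7a and counted reads at least partly in exons with featureCounts 1.6.5, leaving out reads on several genes or regions. A strand setting is not given in the sources used here, so reads of genes that overlap on opposite strands may not be told apart, and reads shared with the processed pseudogenes of Ccnd3, Ccnb1 and Ccnb2 were left out. What the authors deposited is a score, each count being divided by a factor per library and rounded. The factors were recovered from the steps that rounding leaves and are approximate. They gave an estimate of the reads per library, whose counting error sets the precision of low genes. No model for raw counts was used on these values, and voom on the recovered reads was an alternative only.

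Genes averaging 5 or more normalized counts entered a limma 3.58.1 fit (R 4.3.3, lmFit, eBayes with trend, two-sided, all 6 libraries) on log2(normalized count + 1) with Benjamini-Hochberg adjustment over all genes. Fold changes on this scale understate those of low genes. Calls used an adjusted p of at most 0.05, alone or with a fold change of at least 1.5. With 3 libraries against 3, an exact permutation test cannot go below p = 0.1, so none was used for the calls. Such a test was run on the ratios, but its p-values were not used. The members and lists were chosen with earlier results of these data known. Values are given for all members called, for the highest expressed member of a role without a call, and for up to 4 called genes per list with a mean of at least 50. Values outside this rule, such as those of Meis1, Cdk9, Cdc25a and E2f7, were added after the values were seen. The fit was tested on simulated data.

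By a chi-square over genes with at least 20 reads, LNA Malat1 replicates 1 and 3 differed by 0.95 per gene, where sampling noise gives about 1. Replicates 1 and 2 gave 1.01 (chi-square p = 0.15), so this choice is a cautious one. In the genes with at least 1600 reads, LNA Malat1 replicates 1 and 3 gave 1.10 (chi-square p = 0.003). The LNA Control libraries differed by more over genes with at least 20 reads. They gave 2.09 for replicates 1 and 2, 4.18 for 1 and 3, and 1.77 for 2 and 3. In the genes with at least 1600 reads, LNA Control replicates 1 and 3 gave 14.94. Of the 21269 genes, 21224 have an identifier in GENCODE M21, and all 51 members have the same position there, from which exonic length and overlaps were taken. Alternatives were a replicate block, a pseudocount of 0.1 or of 5, other scalings and filters, a 2-fold minimum, voom on recovered reads, replicates 1 and 3 as 1 sample and leaving out each library. For the ratios, counting the 3 LNA Malat1 libraries singly was added after seeing the data. Some results for genes of the related lists are not reported here.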

Additional observations from a re-analysis of the deposited data

How the results depend on the processing

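All 23 called members kept their direction in all 16 alternatives run for each member, and 13 of them were called in every one: Ccnd1, Ccna2, Ccnt1, Ccnt2, Cdkn1c, Cdkn2c, Cdkn2d, Rbl2, E2f6, Tfdp1, Tfdp2, Cdc25b and Mybl2. Of 815 member values under alternatives, 751 stayed on their side of the threshold, 50 lost a call, 14 gained one and 0 changed the direction of a called value. Against 23 members, 14 to 23 were called when a library was left out. The number was 15 without LNA Malat1 replicate 1, 14 without replicate 3 and 16 with these replicates as 1 sample, settings that test fewer libraries. With a 1.5-fold minimum 3 members were called, 2 or 3 with each library left out. A 2-fold minimum gave 0 calls in limma, since the largest change of a member was -0.65 on the log2 scale. The related lists gave 49 calls, and 35 to 63 with each library left out. Deviations from the group means were weakly correlated between libraries of the same number over 10490 genes (r of 0.086, 0.182 and 0.083 for numbers 1, 2 and 3), so the numbers were not taken as pairing the samples, although each library correlated best with its own number. With the replicate number as a block, 24 members were called, 7 higher and 17 lower, with E2f7 gained and 0 lost, and Malat1 was at -0.80. A 1.5-fold change remained in every alternative only for Rbl2. Depth limits the reading of Ccnd2, at 1 to 11 normalized counts.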
